A study of Mus musculus with 12 samples.

Results

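The 44 genes described here encode the proteins that license replication origins, unwind and copy DNA, supply deoxynucleotides and drive entry into S phase. They were taken by symbol from the 23184 gene symbols of the deposited expression table, and all 44 had a row. They were sorted by role into 9 groups, called sub-complexes below: origin recognition and licensing (4 genes), the MCM2-7 helicase (6), Cdc45 with GINS and Mcm10 (6), the sliding clamp and its loader (5), polymerases and primase (7), RPA with the factors that join Okazaki fragments (3), nucleotide supply (4), S phase entry regulators (5) and chromatin replication (4). RNA was sequenced from HL-1, a mouse line that came from atrial heart muscle tumour cells, in 3 groups of 4 libraries grown in DMEM with fetal bovine serum. CON cells carried the pCDH and lentiCRISPRv2 vectors and had the WT genotype. KD cells carried an sgRNA against Wdr62 and were labelled WDR62-. RE cells were KD cells given a second virus for flag-tagged wild-type WDR62 (pCDH-WDR62-WT-flag) and were labelled WDR62+. The pCDH vector is named in the labels of CON and RE, while those of KD leave it out, and they do not say whether the KD cells were a clone or a pool. In the treatment field the number in the nuclease or gene name climbs by 1 from library to library within KD and within RE, while the genotype field is the same within each group, so the groups follow the titles and genotypes. Expression is in TPM, in which each library's values are scaled by transcript length and sum to 1000000, so that levels can be compared between genes.

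A replication origin is licensed in G1, when the origin recognition complex with Cdc6 and Cdt1 loads the MCM2-7 ring onto DNA. At the start of S phase Cdc45 and GINS join the ring to form the CMG helicase, primase and DNA polymerase alpha lay primers, and the RFC loader places the PCNA clamp that holds polymerases delta and epsilon on the template. Genes of this machinery are transcribed as cells approach S phase, and many are known targets of the E2F transcription factors, which are held back by RB until cyclin E and CDK2 release them.

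Promoter sequence was read from RefSeq (build GRCm38.p6) for the 36 members with a window there, from 250 bases before to 50 bases after the transcription start. An E2F word was counted as an exact match, on either strand, to TTTCCCGC, TTTGGCGC, TTTCGCGC or TTTGCCGC. Such a word was present in 16 of the 36 members (44.4%), in 2.60% of the 27025 genes with a window and in 4.79% of the 8956 of them that passed the expression filter of this report. By sub-complex it was found in 4 of 5 MCM genes, 3 of 4 licensing genes, 3 of 5 polymerase and primase genes, 2 of 4 S phase regulators, and 1 gene each of the Cdc45 and GINS group (3 with a window), the clamp and loader (4), the RPA group (3) and the chromatin genes (4), and in 0 of 4 nucleotide supply genes. A CCAAT box (CCAAT on either strand), the sequence bound by NF-Y, was present in 61.1% of the members against 43.7% of the tested genes, and a GC box (GGGCGG on either strand) in 77.8% against 70.2%. A match describes letters and is not a measured site, and the absence of a match says nothing about binding of the factor. The lines below show matches in 10 of the 16 genes, from the helicase, clamp loader, polymerase and licensing groups and 2 regulators. The comparison of sub-complexes that follows uses all members, with a word or without. Orc1, Cdt1, Gins3, Pold1, Lig1 and Uhrf1 also hold a word and are not printed. Each sequence runs 5′ to 3′ on the gene's strand with E2F words in capitals.
Mcm3, chr1:20820280-20820299, minus strand: tccgtgGCGGGAAAacttgg
Mcm5, chr8:75109350-75109373, plus strand: aagaacTTTCGCGCCAAAacgtcc
Mcm6, chr1:128359798-128359821, minus strand: tatgctTTTGGCGCGAAAagtgcg
Mcm7, chr5:138172035-138172054, minus strand: cgaaccGCGGGAAAcagggt
Rfc3, chr5:151651195-151651224, minus strand: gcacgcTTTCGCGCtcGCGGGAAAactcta
Pola1, chrX:93632280-93632299, minus strand: cacaggGCGCCAAAtgcact
Pole2, chr12:69228167-69228186, minus strand: gcggtgGCGCCAAAtcgcga
Cdc6, chr11:98908007-98908026, plus strand: tggagaGCGGGAAAtcgcct
Cdc25a, chr9:109875506-109875525, plus strand: attccgTTTGGCGCcaacta
E2f2, chr4:136172307-136172323, plus strand: atatagTTTGGCGCtaa
Positions are counted from the transcription start as base 1, with no base 0. In Mcm5 and Mcm6 words on the 2 strands share 4 bases, at -153 to -142 and at -110 to -99. In Rfc3 the words flank the start, at -10 to -3 and 1 to 8. Mcm3 and Mcm7 hold a further word after the start, at 39 to 46 and at 17 to 24, that is not shown.

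Longer upstream stretches are shown for a member with the words and a pair without. Mcm6 is the MCM gene with the highest TPM, Tk1 is the member that passed the test in 2 of the 3 comparisons, and Ccne1 had the highest fitted difference between KD and CON. The stretch ends where the gene starts in RefSeq or in GENCODE M21, whichever is further upstream, and E2F words and CCAAT boxes are in capitals.
Mcm6, 250 bases, chr1:128359706-128359955, minus strand: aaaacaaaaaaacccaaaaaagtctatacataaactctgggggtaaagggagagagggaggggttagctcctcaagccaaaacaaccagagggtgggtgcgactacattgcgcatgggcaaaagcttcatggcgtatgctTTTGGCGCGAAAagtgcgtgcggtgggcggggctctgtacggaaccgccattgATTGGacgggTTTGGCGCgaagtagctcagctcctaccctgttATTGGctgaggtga
Tk1, 172 bases, chr11:117826093-117826264, minus strand: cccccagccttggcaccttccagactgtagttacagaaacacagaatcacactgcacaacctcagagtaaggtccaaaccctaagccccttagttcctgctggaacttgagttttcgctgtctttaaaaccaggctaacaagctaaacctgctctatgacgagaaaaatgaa
Ccne1, 206 bases, chr7:38107535-38107740, minus strand: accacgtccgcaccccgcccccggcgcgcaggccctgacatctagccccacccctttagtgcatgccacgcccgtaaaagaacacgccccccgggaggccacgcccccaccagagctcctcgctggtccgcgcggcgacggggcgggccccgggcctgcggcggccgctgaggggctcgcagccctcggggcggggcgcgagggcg
The Mcm6 stretch holds 3 E2F words, 2 of them overlapping, and 2 CCAAT boxes, and the stretches of Tk1 and Ccne1 hold neither. The median fitted difference between KD and CON, on the log2(TPM + 1) scale, was -0.99 for the 16 members with an E2F word and -0.73 for the 20 without, and the ranges overlapped (-1.59 to 0.03 and -1.38 to 0.12).

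**Figure D1:**
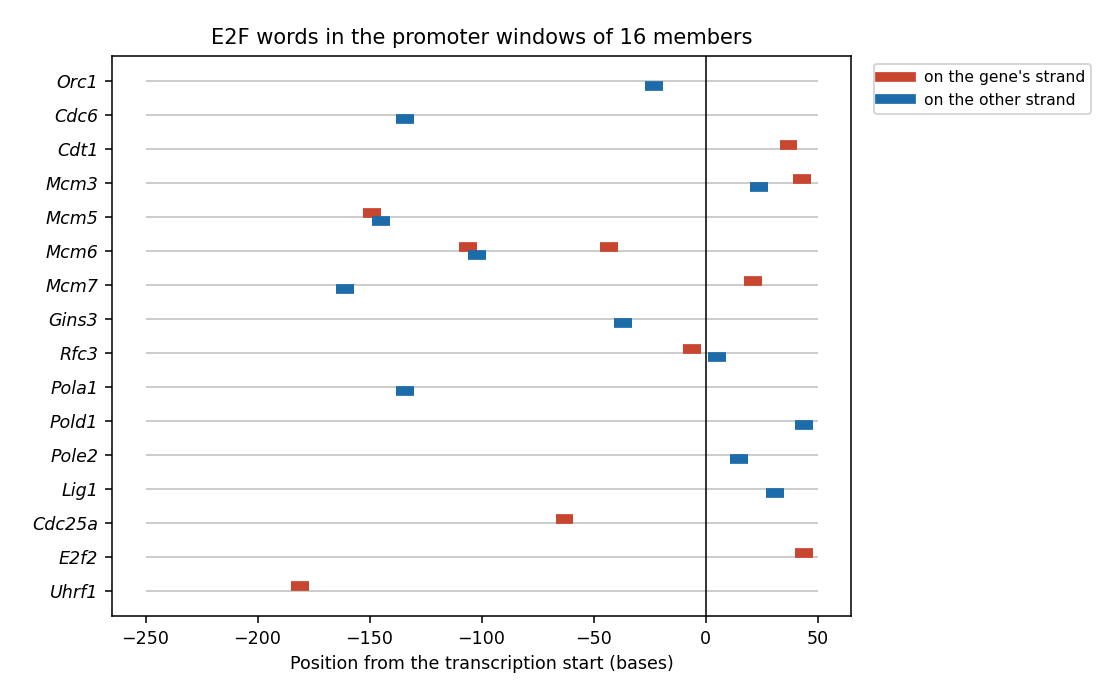
Positions of E2F words in the promoter windows of the 16 members that hold one. The x axis is the distance in bases from the RefSeq transcription start, each row is a gene, and colour gives the strand of the word; for Mcm6, 3 words lie upstream of the start, while the words of Cdt1, Mcm3, Pold1, Pole2, Lig1 and E2f2 lie within the first 50 bases after it.

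The targeted gene was checked first. Wdr62, which encodes a spindle pole scaffold protein, had 7.45, 6.61, 6.50 and 3.38 TPM in CON 1 to 4, 1.40, 0.944, 1.37 and 0.881 TPM in KD 1 to 4, and 1.47, 0.772, 0.826 and 1.99 TPM in RE 1 to 4. All KD values lay below all CON values, and RE overlapped KD. Wdr62 fell by 1.67 ± 0.25 on the log2 scale in KD (SE, limma adjusted p = 0.000921, exact permutation p = 0.0286, two-sided, the smallest that 4 against 4 can give). In RE it differed from KD by 0.05 (95% interval -0.48 to 0.58), so the RE libraries are named by their label and no direction below is read as an effect of added WDR62. The labels do not give the species of the WDR62 sequence in the construct. Of 14 cardiac muscle marker genes, 8 were under 1 TPM in every library, among them Actc1 and Myl7, which were listed at 0 throughout, a value that can also be a failed estimate. The gap junction gene Gja1 and the cardiac genes Tnnt2, Nkx2-5 and Gata4 were present. The list summed to 565 to 775 TPM in CON, 765 to 989 in KD and 463 to 789 in RE, of which Gja1 made up nearly all. The other 13 genes summed to 30.4 to 47.5 TPM in CON, 39.5 to 49.2 in KD and 41.2 to 65.9 in RE. Among them Nkx2-5 was higher in KD and in RE than in CON (limma adjusted p = 0.0229 and 0.00309). Of the endothelial markers 7 of 7, and of the leukocyte markers 5 of 6, were under 1 TPM in all libraries. A list of 8 fibroblast genes, led by collagens, summed to 2751 to 4259.8 TPM in CON, 2947 to 4247 in KD and 1559 to 2524 in RE, most of it Col3a1. The other fibroblast markers Lum, Thy1 and Tcf21 in that list were under 1 TPM in every library. Of the 5 fibroblast genes tested, Dcn fell by 2.65 and Col1a1 fell by 0.75 on the log2 scale in KD against CON (limma adjusted p = 0.000304 and 0.0244), 2 fell in RE against KD and 4 fell in RE against CON. The part of these genes' cells in the results below was not tested. A TPM table holds no sequencing depth, so no counting interval can be given, and without the strand of the counted reads a gene and an overlapping gene on the opposite strand cannot be told apart. CON 4, RE 1 and RE 3 stood apart in that genes with long transcripts were low in them. Over the 2339 tested genes with a transcript of at least 5027 bases, the median log2 deviation from the gene's mean was -0.83 in CON 4, -0.73 in RE 1 and -1.0 in RE 3, and between -0.21 and 0.72 in the other 9 libraries. Results that rest on these libraries are given with and without them.

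Between KD and CON the replication genes lay lower in KD. Of the 44 members, 7 fell and 0 rose at an adjusted p below 0.05 (limma on log2(TPM + 1), fitted over 11774 genes with a mean of at least 1 TPM, all 44 members among them). Over all genes tested, 3.61% fell and 6.60% rose in the same comparison. The 7 were the clamp loader genes Rfc2, Rfc3 and Rfc4, the helicase genes Mcm7 and Gins1, the polymerase delta gene Pold1 and the thymidine kinase gene Tk1. At an unadjusted p below 0.05, 26 members were lower and 0 higher, against 10.2% and 13.6% of all genes. The fitted difference was below 0 for 42 of the 44 members, all but Ccne1 and Cdc25a, and its median was -0.96 against -0.01 over all genes. In 13 members all of KD lay below all of CON, a pattern seen in 7.02% of the genes tested, and 0 members had the reverse pattern, against 11.9%. When CON 4 was set aside, all 4 KD libraries lay below CON 1, CON 2 and CON 3 in 42 members, against 31.2% of all genes. Less RNA per cell and fewer cells in S phase cannot be told apart in libraries made from whole cultures.

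The number of calls depended on single libraries. It was 0 when CON 1, CON 2, CON 3, KD 1 or KD 2 was left out, where 2.28%, 2.18%, 2.17%, 2.21% and 2.05% of all genes were called lower. Leaving out KD 4 left 1 member, Rfc3 (2.23%). The number was 27 without CON 4 (11%), 21 without RE 3 (4.96%), and 39 without CON 4, RE 1 and RE 3 together (25.1%). All of these calls were in the lower direction. Nothing in the labels ties the 4 libraries of a group to separate cultures, and the spread behind the p-values may be technical.

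**Figure D2:**
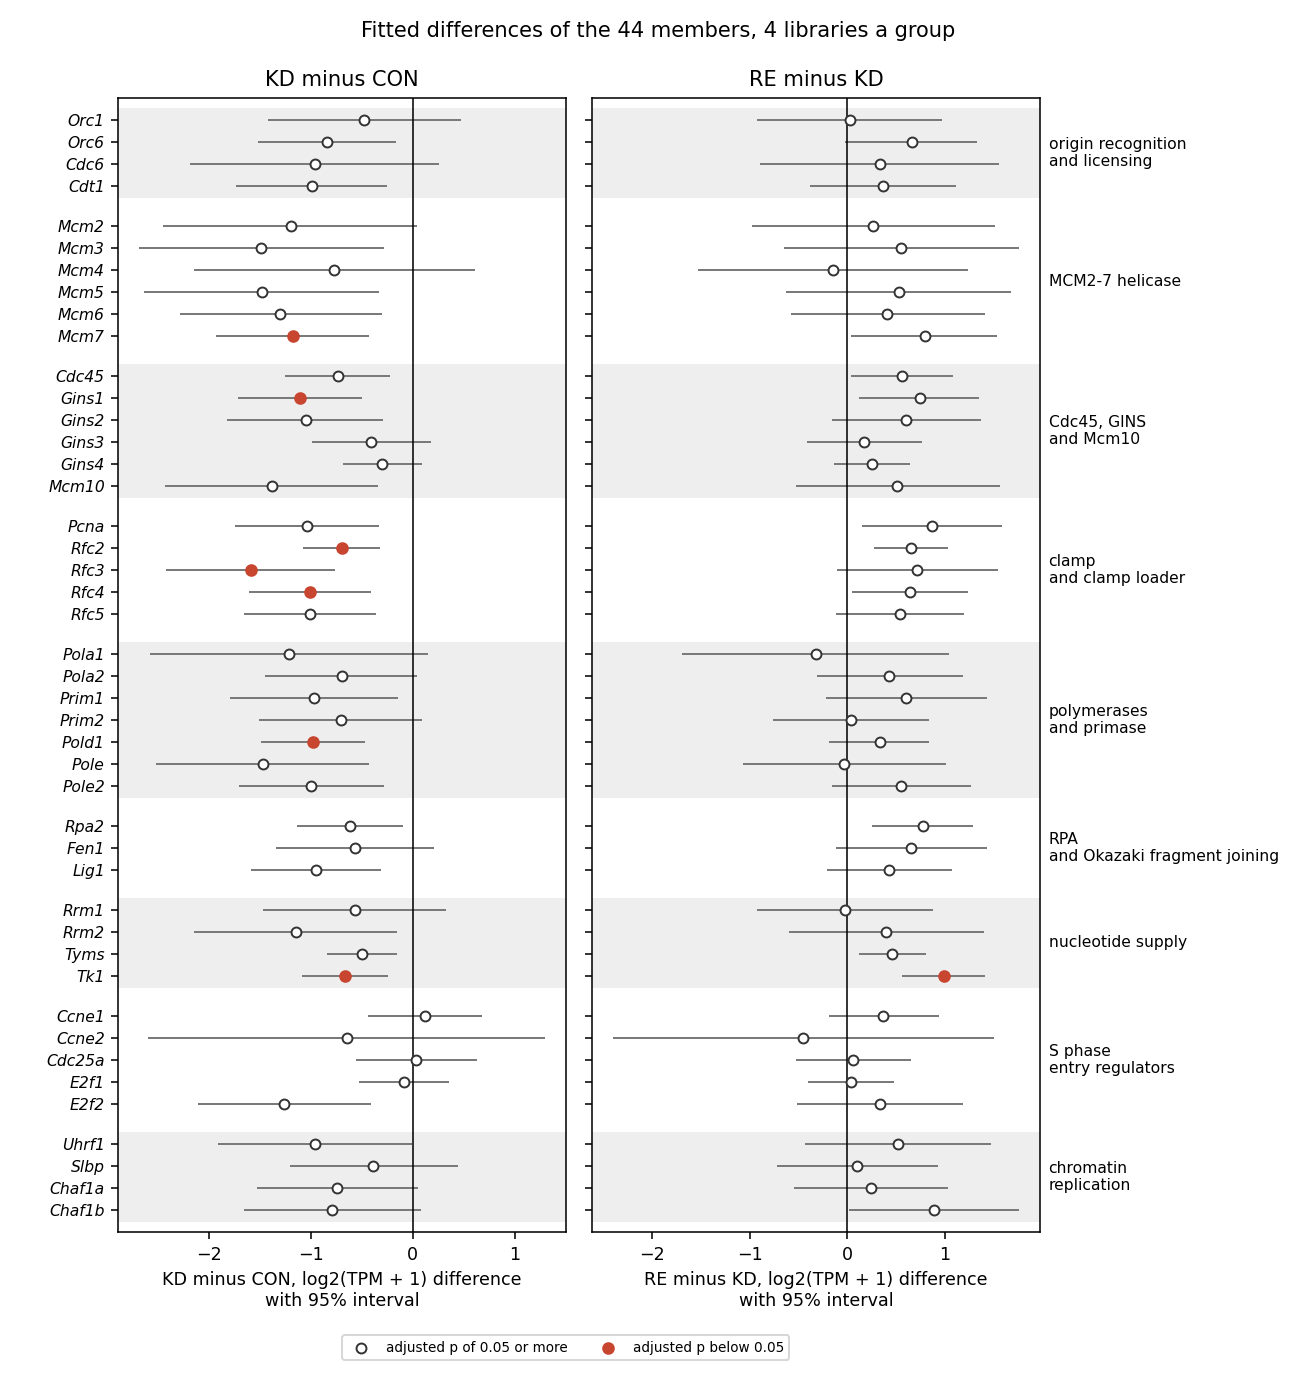
Fitted log2(TPM + 1) differences of the 44 members between KD and CON (left) and between RE and KD (right), 4 libraries a group. Points are estimates, bars are 95% intervals and filled points have a limma adjusted p below 0.05; the 7 filled points on the left all lie below 0, and the single filled point on the right is Tk1 at 0.99.

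Among the licensing genes, 0 of 4 passed the test and 2 were lower at an unadjusted p below 0.05. Orc6, which encodes the small subunit of the origin recognition complex, had 66.2, 62.3, 59.9 and 51.6 TPM in CON 1 to 4, 28.1, 25.3, 43.0 and 38.1 TPM in KD 1 to 4, and 86.1, 31.2, 35.6 and 78.1 TPM in RE 1 to 4. The CON and KD libraries did not overlap, and RE split into a pair above CON and a pair at the KD level. The difference between KD and CON was -0.84 ± 0.31 (limma adjusted p = 0.116). Cdt1, the factor that brings MCM2-7 to the origin, had 70.6, 64.7, 66.3 and 31.4 TPM in CON, 28.5, 22.0, 33.1 and 27.3 TPM in KD, and 51.9, 30.3, 18.4 and 54.3 TPM in RE. CON 4 lay inside the KD range, and the other 3 CON libraries were each above all of KD. Its difference of -0.99 ± 0.34 had an adjusted p of 0.0917, and of 0.0149 without CON 4. Cdc6, the ATPase that works with Cdt1 in loading, averaged 15.6 ± 7.91 TPM in CON (SD) and 6.59 ± 1.51 in KD, and Orc1, the largest subunit of the origin recognition complex, 8.76 ± 4.14 and 5.36 ± 0.591. For both, CON 4 was below every KD library, at 4.45 and 2.78 TPM, and the differences of -0.96 ± 0.56 and -0.48 ± 0.43 did not pass. Orc1 was the licensing gene with the lowest TPM in 11 of the 12 libraries.

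The MCM2-7 genes, which encode the ring-shaped motor of the helicase, had the lowest median difference of the 9 sub-complexes, -1.25, and 1 of 6 passed the test. Mcm7 (chr5:138164583-138172422) had 141, 133, 126 and 80.6 TPM in CON 1 to 4, 43.2, 40.0, 70.6 and 57.4 TPM in KD 1 to 4, and 135, 67.5, 47.4 and 147 TPM in RE 1 to 4. No KD library reached the lowest CON library, whereas RE 1 and RE 4 matched CON and RE 2 and RE 3 lay within the KD range. Mcm7 fell by 1.18 ± 0.34 in KD (limma adjusted p = 0.0489). That call rested on CON 1, CON 2, CON 3, KD 1, KD 2, KD 4 and RE 2, since it was lost when any of these 7 was left out (highest adjusted p 0.146). On the opposite strand, 64 exon bases of Mcm7 are shared with Cops6 (290 TPM) and 321 with Ap4m1 (15.6 TPM). Overlaps are named here for some members and are not a full list.

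The other 5 MCM genes had differences from -0.77 to -1.49 and adjusted p-values between 0.10 and 0.543, and in each of them CON 4 lay within or below the KD range. Mcm6, the subunit with the highest TPM of the 6 in all 12 libraries, had 319, 308, 278 and 112 TPM in CON, 79.5, 80.0, 125 and 104 TPM in KD, and 197, 106, 50.5 and 246 TPM in RE. The first 3 CON libraries were above every KD and RE value, and CON 4 fell between KD 4 and KD 3. Mcm2 had 143, 146, 138 and 28.7 TPM in CON, 36.9, 36.1, 49.8 and 42.7 TPM in KD, and 72.8, 46.0, 16.8 and 104 TPM in RE. For Mcm2, CON 4 was lower than every KD library, and RE 3 was the lowest of the 12. In Mcm3, Mcm4 and Mcm5, CON 1 to 3 had 113 to 242 TPM and KD 29.6 to 78.2 TPM, and CON 4 was at 62.4, 23.1 and 43.3 TPM. Without CON 4, 5 of the 6 MCM genes fell and Mcm4 had an adjusted p of 0.0728. The 6 subunits assemble in equal numbers, and their TPM within a library spanned a factor of 2.26 to 4.86 from lowest to highest.

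Cdc45, the 4 GINS genes and Mcm10, whose products turn the loaded ring into an active helicase, had a median difference of -0.89, and 1 of 6 fell. Gins1 (chr2:150905400-150931280), a subunit of the GINS tetramer, had 63.3, 71.4, 62.5 and 47.3 TPM in CON 1 to 4, 31.4, 19.1, 33.4 and 28.4 TPM in KD 1 to 4, and 67.8, 33.7, 30.5 and 66.8 TPM in RE 1 to 4. The groups CON and KD did not overlap, and RE again held a pair at the CON level and a pair at the KD level. Gins1 fell by 1.11 ± 0.28 in KD (limma adjusted p = 0.0252), and the highest adjusted p, 0.0878, came without KD 2. The call was lost when CON 1, CON 2, CON 3, KD 1, KD 2 or KD 4 was left out. In Cdc45 and Gins2 too the groups did not overlap, with differences of -0.73 ± 0.24 (adjusted p = 0.0741) and -1.05 ± 0.35 (adjusted p = 0.0821). Cdc45 ran from 35.0 to 43.7 TPM in KD and from 43.9 to 85.0 TPM in CON, so that CON 4 and KD 1 all but met. The remaining GINS subunits differed less. Gins4 averaged 68.6 ± 6.69 TPM in CON (SD) and 55.7 ± 7.20 TPM in KD, a difference of -0.30 (95% interval -0.69 to 0.09), and Gins3, the GINS subunit with the lowest TPM, a difference of -0.41 (-0.99 to 0.18). Mcm10, which binds the helicase and polymerase alpha, had 35.4, 30.2, 27.0 and 10.8 TPM in CON, 8.38, 6.68, 11.7 and 7.82 TPM in KD, and 21.1, 9.69, 4.39 and 25.4 TPM in RE. In Mcm10 the CON 4 value lay below KD 3 alone, and the difference of -1.38 ± 0.48 had an adjusted p of 0.0946 with CON 4 and 0.0175 without it.

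The clamp and clamp loader genes held 3 of the 7 calls among 5 members, and in 4 of the 5 the KD and CON libraries did not overlap. RFC is a ring of a large subunit and small subunits, of which Rfc2 to Rfc5 are the small ones, that opens PCNA and closes it around DNA. Rfc3 (chr5:151642756-151651242) had 147, 129, 124 and 85.2 TPM in CON 1 to 4, 34.8, 31.0, 52.3 and 40.4 TPM in KD 1 to 4, and 106, 46.8, 29.5 and 116 TPM in RE 1 to 4. The gap between KD 3 and CON 4 was wider than the whole range of KD. Rfc3 fell by 1.59 ± 0.38 (limma adjusted p = 0.0184), the lowest estimate of the 44 members. Rfc2 (chr5:134581366-134601805) had 162, 147, 158 and 130.0 TPM in CON, 80.8, 80.9, 109.6 and 95.7 TPM in KD, and 177, 129, 107 and 170.2 TPM in RE, and Rfc2 fell by 0.70 ± 0.18 (adjusted p = 0.0231). Here the RE libraries spread over the whole of the CON range and down to the highest KD library.

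Rfc4 (chr16:23113943-23127737) had 114, 109, 101 and 53.3 TPM in CON, 40.9, 41.7, 50.4 and 45.3 TPM in KD, and 80.5, 62.9, 45.4 and 104 TPM in RE, and Rfc4 fell by 1.01 ± 0.27 (limma adjusted p = 0.0347). It shares 175 exon bases with Eif4a2 (232 TPM), a translation initiation factor gene on the opposite strand. The calls of Rfc2, Rfc3 and Rfc4 were each lost when CON 1, CON 2, CON 3, KD 1 or KD 2 was left out, and those of Rfc2 and Rfc4 also without KD 4. The highest adjusted p in these fits was 0.0815 for Rfc2, 0.0629 for Rfc3 and 0.106 for Rfc4. Rfc5, the loader subunit with the lowest TPM in all 12 libraries, had a difference of -1.01 ± 0.30 (adjusted p = 0.0525) without overlap of the groups. Pcna, the clamp itself, had 170.2, 138, 148 and 111 TPM in CON, 58.2, 48.0, 116 and 64.8 TPM in KD, and 173, 90.2, 77.9 and 196 TPM in RE. KD 3 was the library that made KD and CON overlap, at 116 TPM against 111 TPM in CON 4, and the difference was -1.04 ± 0.33 (adjusted p = 0.0653). Over the 5 genes the median difference was -1.01, and CON 4 departed little from the other CON libraries for Rfc2 (-0.26 on the log2 scale) and Pcna (-0.44).

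**Figure D3:**
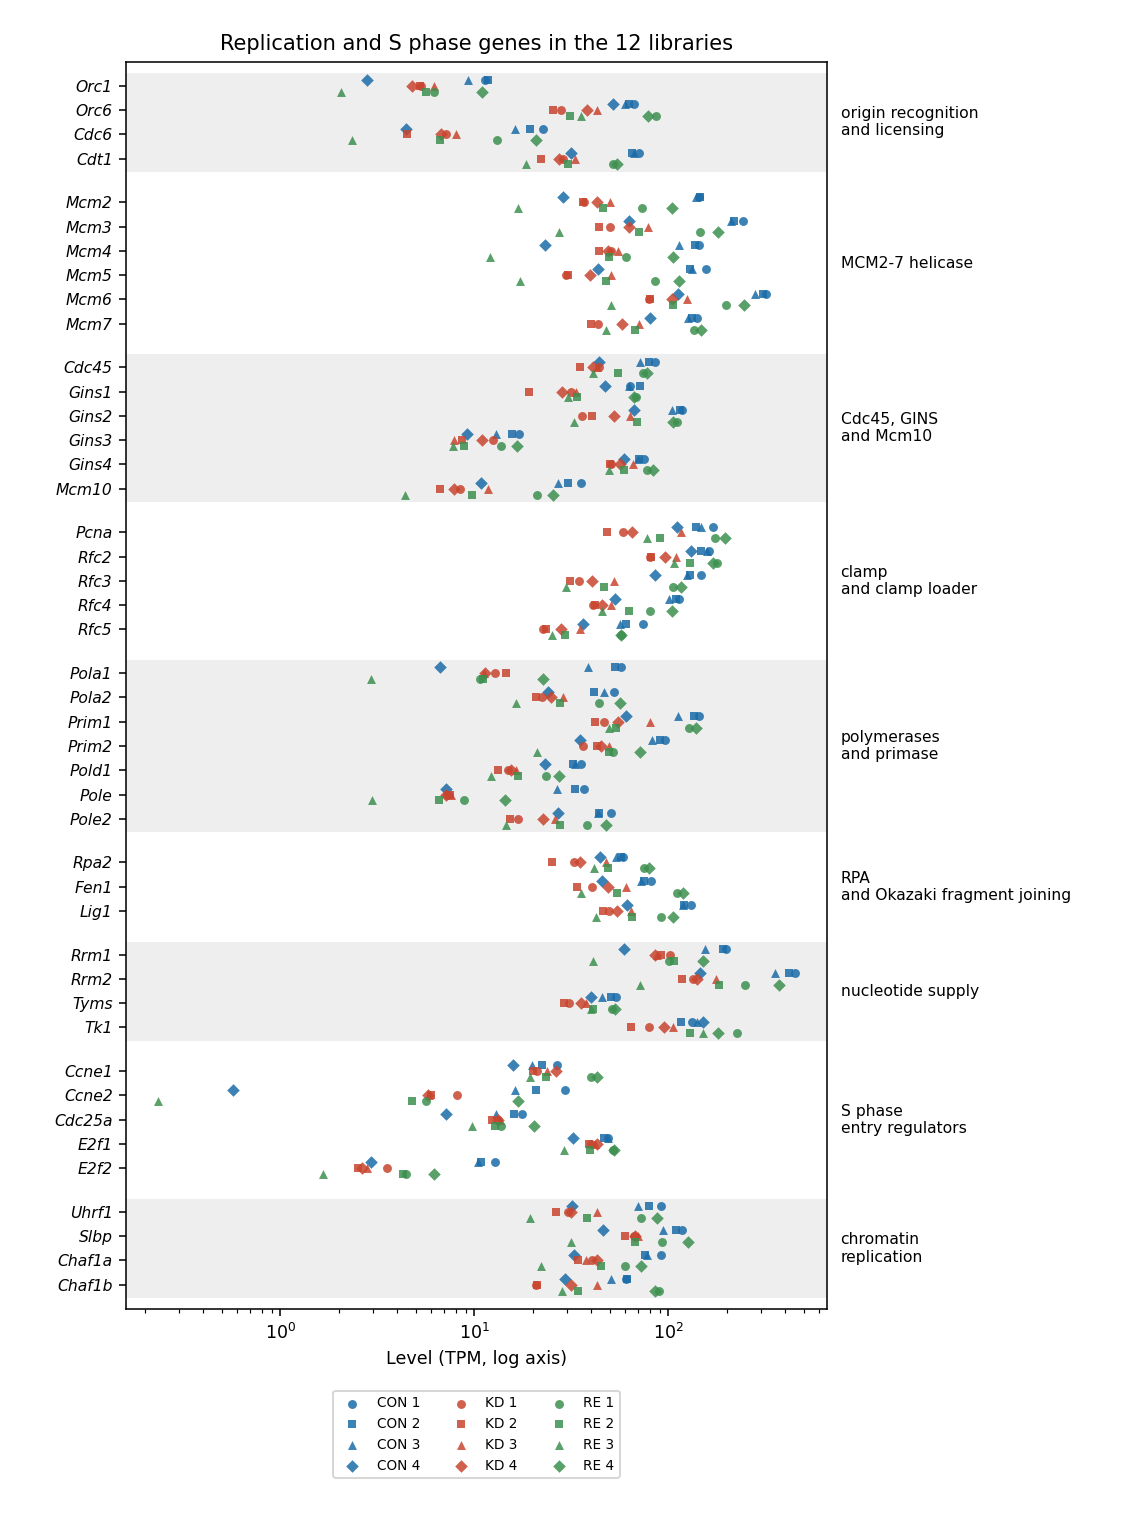
TPM of each member in the 12 libraries on a log axis, grouped by sub-complex; colour gives the group and the symbol the library number. Diamonds mark CON 4, KD 4 and RE 4 and triangles RE 3; for Mcm2, Mcm4, Pola1 and Ccne2 the CON 4 diamond lies left of all 4 KD symbols, while for Rfc2 and Rfc3 it lies right of them.

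Polymerase and primase genes had a median difference of -0.98, and 1 of 7 passed. Pold1 (chr7:44532746-44548849), the catalytic subunit of the lagging-strand polymerase delta, had 35.6, 32.2, 32.9 and 23.0 TPM in CON 1 to 4, 14.9, 13.3, 16.3 and 15.5 TPM in KD 1 to 4, and 23.5, 16.7, 12.2 and 27.2 TPM in RE 1 to 4. The KD libraries were close together and all below CON, and no RE library reached CON 1, CON 2 or CON 3. Pold1 fell by 0.98 ± 0.24 in KD (limma adjusted p = 0.0192), and the call was lost when CON 1, CON 2, CON 3, KD 1, KD 2 or KD 4 was left out (highest adjusted p 0.0673). Pole, the catalytic subunit of the leading-strand polymerase epsilon, had 36.8, 33.1, 26.6 and 7.16 TPM in CON, 7.20, 7.46, 7.59 and 7.17 TPM in KD, and 8.88, 6.54, 2.95 and 14.3 TPM in RE. CON 4 was just below the 4 KD libraries, and the difference of -1.47 ± 0.48 had an adjusted p of 0.0745, or 0.00238 without CON 4. Pola1, the catalytic subunit of polymerase alpha, had 57.0, 52.9, 38.3 and 6.61 TPM in CON, 12.8, 14.5, 11.2 and 11.3 TPM in KD, and 10.7, 11.1, 2.93 and 22.5 TPM in RE. Its CON 4 value was below all of KD, and its adjusted p went from 0.273 to 0.0117 when that library was left out. The accessory subunit genes Pole2 and Pola2 differed by -1.0 ± 0.33 and -0.70 ± 0.34, and the KD and CON libraries of Pole2 did not overlap. The primase genes Prim1 and Prim2, which make the RNA primers, differed by -0.97 ± 0.38 and -0.71 ± 0.37, and none of these 4 passed. Prim1 had the highest TPM of the 7 in 11 libraries.

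For the single-strand binding protein gene Rpa2 and the Okazaki fragment genes Fen1 and Lig1, 0 of 3 passed and 2 were lower at an unadjusted p below 0.05, and the median was -0.62. Lig1, the ligase that seals fragments, had 131, 121, 119 and 61.2 TPM in CON 1 to 4, 49.3, 46.1, 64.1 and 54.1 TPM in KD 1 to 4, and 91.1, 64.8, 42.3 and 105 TPM in RE 1 to 4. CON 4 was the control library inside the KD range, and the difference of -0.95 ± 0.29 had a limma adjusted p of 0.0613, or 0.00727 without it. Rpa2 differed by -0.62 ± 0.24 (adjusted p = 0.128), with KD 3 at 47.4 TPM above CON 4 at 44.6 TPM. Fen1, the flap nuclease, differed by -0.57 ± 0.36 (adjusted p = 0.390), and shares 130 exon bases with the far more abundant Tmem258 (896 TPM) on the opposite strand.

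Nucleotide supply genes had a median difference of -0.62, and 1 of 4 passed. Tk1 (chr11:117815526-117826092), the cytosolic thymidine kinase of the salvage pathway, had 133, 116, 139.7 and 150.0 TPM in CON 1 to 4, 79.1, 64.0, 105 and 94.7 TPM in KD 1 to 4, and 225, 129, 151 and 180.1 TPM in RE 1 to 4. KD lay below both other groups without overlap, and CON 4 was the highest CON library, which held for no other member. Tk1 fell by 0.67 ± 0.19 in KD (limma adjusted p = 0.0488), and that call was lost when any 1 of the 4 CON libraries, KD 1, KD 2, KD 4 or RE 4 was left out (highest adjusted p 0.157). Rrm2, the S phase subunit of ribonucleotide reductase and the member with the highest mean TPM in CON, had 448, 421, 354 and 145 TPM in CON, 134, 117, 175 and 141 TPM in KD, and 248, 182, 71.0 and 369.9 TPM in RE. CON 4 fell among the KD libraries, and the difference was -1.15 ± 0.46 (adjusted p = 0.142). Rrm1, the large subunit, had 58.8 TPM in CON 4, below KD (85.6 to 102 TPM), against 154 to 198 TPM in the other controls, and a difference of -0.57 ± 0.41. Tyms, thymidylate synthase of the de novo pathway, had 53.8, 50.6, 45.4 and 39.9 TPM in CON and 30.8, 29.1, 37.6 and 35.4 TPM in KD. Its groups did not overlap, the difference was -0.50 ± 0.16 (adjusted p = 0.0671), and it had the lowest TPM of the 4 in every library.

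The S phase entry regulators had a median difference of -0.09, the nearest to 0 of the 9 sub-complexes, and their members ranged from -1.26 for E2f2 to 0.12 for Ccne1. Of 5 members, 0 passed the test and 1, E2f2, was lower at an unadjusted p below 0.05. E2f1, the activating transcription factor and the regulator with the highest TPM in all 12 libraries, had 48.9, 46.3, 48.9 and 32.4 TPM in CON 1 to 4, 40.0, 38.8, 41.7 and 42.6 TPM in KD 1 to 4, and 51.6, 39.2, 28.9 and 52.2 TPM in RE 1 to 4. KD lay between CON 4 and the other controls, and the difference was -0.09 (95% interval -0.53 to 0.35). Ccne1, which encodes cyclin E1, had 26.8, 22.4, 19.7 and 15.8 TPM in CON, 21.1, 20, 23.6 and 26.4 TPM in KD, and 40.0, 23.3, 19.3 and 42.8 TPM in RE. The CON and KD libraries were intermixed, with a difference of 0.12 (-0.44 to 0.68). Cdc25a, the phosphatase that activates CDK2, had 7.13 to 17.5 TPM in CON and 12.3 to 13.5 TPM in KD, a difference of 0.03 (-0.56 to 0.63). Decreases as large as the lower bounds of these 3 intervals remain within the error. E2f2, a second activating E2F, had 12.8, 10.8, 10.4 and 2.94 TPM in CON, 3.54, 2.51, 2.80 and 2.63 TPM in KD, and 4.43, 4.29, 1.65 and 6.21 TPM in RE. Controls 1 to 3 were far above KD, CON 4 was within it, and the difference of -1.26 ± 0.39 had a limma adjusted p of 0.0616, or 0.00186 without CON 4. Ccne2, cyclin E2, ranged from 0.568 TPM in CON 4 to 29.3 TPM in CON 1, and from 0.234 TPM in RE 3 to 16.8 TPM in RE 4, with KD between 5.76 and 8.09 TPM. The standard error of its difference, -0.65 ± 0.90, was the largest of the members.

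Among the chromatin replication genes 0 of 4 passed, 1 was lower at an unadjusted p below 0.05, and the median was -0.76. Uhrf1, which brings DNA methyltransferase to newly copied DNA, had 91.9, 79.4, 69.5 and 31.7 TPM in CON 1 to 4, 30.2, 26.3, 42.7 and 31.4 TPM in KD 1 to 4, and 72.0, 38.1, 19.3 and 87.0 TPM in RE 1 to 4. CON 4 was among the KD libraries, and the difference was -0.96 ± 0.44 (limma adjusted p = 0.205). The CAF-1 histone chaperone genes Chaf1a and Chaf1b differed by -0.74 ± 0.36 and -0.79 ± 0.40. Slbp, the histone mRNA binding protein and the chromatin gene with the highest TPM in all 12 libraries, differed by -0.39 ± 0.38. Chaf1a shares 1862 exon bases with Ubxn6 (79.0 TPM) on the opposite strand.

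Set side by side as descriptions, the median differences between KD and CON ran from -1.25 for MCM2-7, through -1.01 for the clamp and loader, -0.98 for polymerases, -0.90 for licensing, -0.89 for Cdc45 and GINS, -0.76 for chromatin genes, and -0.62 both for the RPA group and for nucleotide supply, to -0.09 for the S phase regulators. The order did not follow the number of calls, which was 3 for the clamp and loader and 1 or 0 elsewhere. The spread of a sub-complex's mean log2 level between replicates (pooled SD over the 3 groups) was 0.82 for MCM2-7, 0.43 for the clamp and loader and 0.60 for the regulators. The widest step between neighbouring medians was from -0.62 to -0.09. The spread is that of single libraries and not the error of a median difference, so it cannot gauge these steps. No test between the sub-complexes was run. Without CON 4 the MCM2-7 median was -1.71 and the clamp and loader median -1.21, and that of the regulators -0.23, against -0.16 over all genes. When each library was corrected for a smooth trend on transcript length, 24 members fell and 0 rose, against 10.6% and 12.2% of all genes, and the medians were -1.28 for MCM2-7, -1.04 for the clamp and loader and -0.12 for the regulators, in the same order. Of the 5 regulators, E2f2 was the 1 called in that fit.

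In the libraries labelled RE, the members separated into 2 pairs. In 42 of the 44 genes RE 1 and RE 4 were both above RE 2 and RE 3, the exceptions being Pola1 and Rrm1, and 19.2% of all genes tested had that order. RE 3 was the lowest RE library in 42 members, all but Orc6 and Tk1, and in 58.9% of all genes. The median deviation of the 44 members from their gene means was 0.44 in RE 1 and 0.72 in RE 4, and -0.19 in RE 2 and -0.91 in RE 3. For comparison it was 0.79, 0.72, 0.58 and -0.37 in CON 1 to 4 and between -0.67 and -0.17 in KD. After the length correction the RE medians were 0.61, -0.19, -0.53 and 0.65, and the pairs were still apart, and CON 4 was at -0.07. Acta2 and Tagln, contractile genes of smooth muscle that were singled out after their values were seen, had the same order, with Acta2 at 1386 and 1433 TPM in RE 1 and RE 4 and 279 and 263 TPM in RE 2 and RE 3. In the same list Cnn1 had that order too, at 4.44 and 4.59 TPM against 2.48 and 3.99 TPM. Smtn and Mylk did not, and both were highest in RE 2, at 68.4 and 6.58 TPM. The smooth muscle list of 6 genes summed to 341 to 1555 TPM in RE, 774 to 1199 in KD and 570.5 to 1163 in CON. Most of each sum was Acta2, and Myh11 was under 1 TPM in every library. The part of these genes' cells in the order of the RE libraries was not tested.

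**Figure D4:**
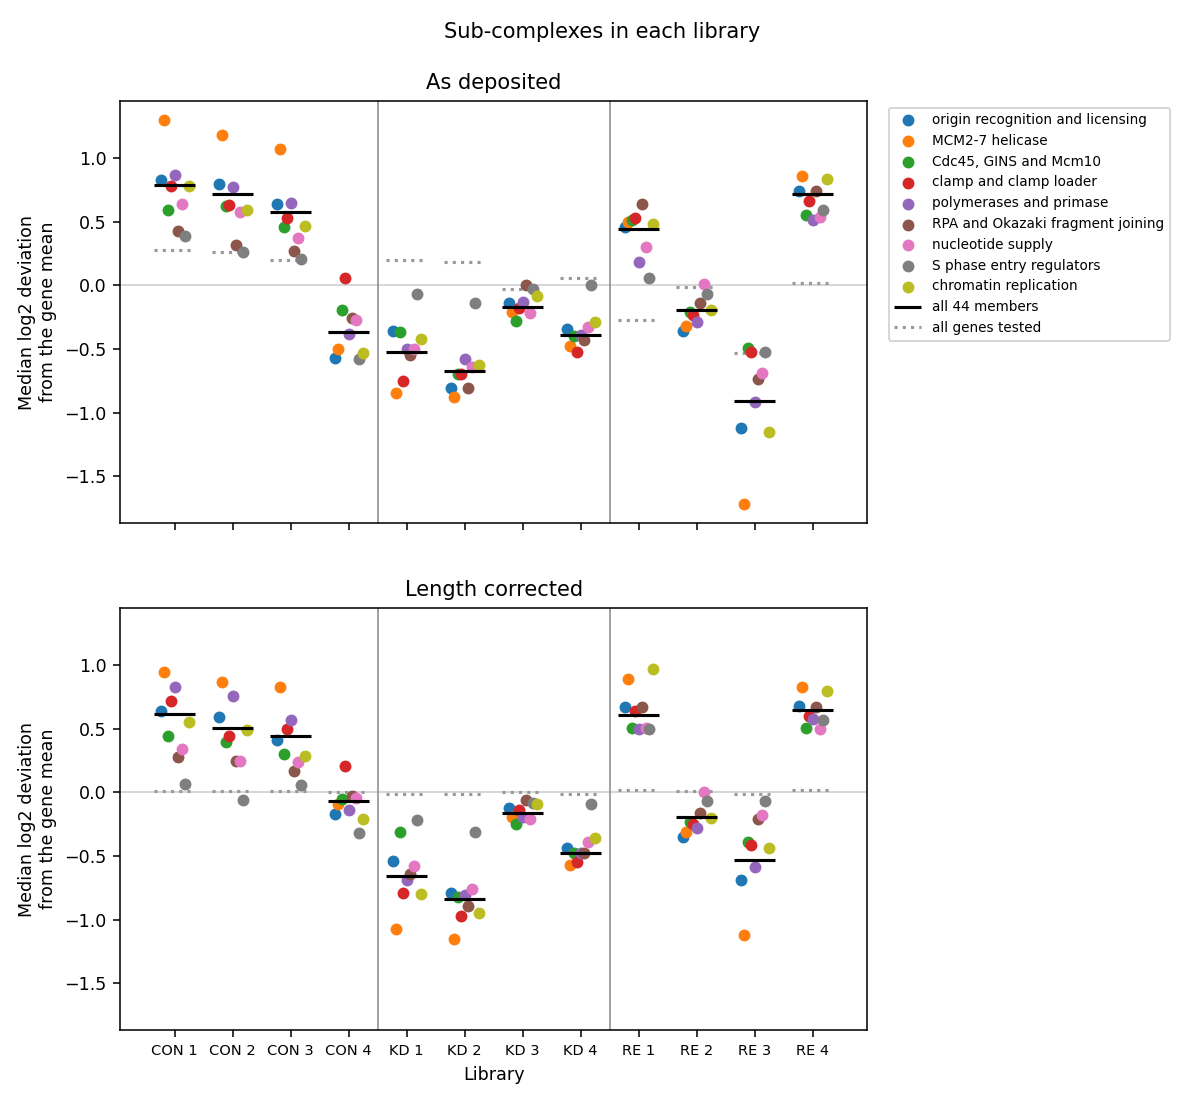
Median log2 deviation of each sub-complex from its genes' means in each library, as deposited (top) and after the transcript length correction (bottom). Points are sub-complexes, black bars all 44 members and dotted bars all genes tested; the black bar is at 0.44 and 0.72 in RE 1 and RE 4 and at -0.19 and -0.91 in RE 2 and RE 3 as deposited, and CON 4 moves from -0.37 to -0.07 with the correction.

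Against KD, 1 of the 44 members rose in RE and 0 fell, where 0.187% of all genes rose and 0.858% fell (22 and 101 genes, or 32 and 46 with median-of-ratios scaling and 67 and 97 with quantile normalization). The member was Tk1, at 0.99 ± 0.19 (limma adjusted p = 0.0376). Its level in every library is given above; the lowest RE value, 129 TPM in RE 2, was above the highest KD value, 105 TPM in KD 3. Leaving out CON 4, KD 3 or RE 2 kept that call, and leaving out any of the other 9 libraries lost it (highest adjusted p 0.166), with differences from 0.84 to 1.11. At an unadjusted p below 0.05, 10 members were higher and 0 lower, against 6.36% and 21.6% of all genes. In 2 members, Tk1 and Tyms, all RE libraries lay above KD, a pattern in 3.47% of genes, and 0 members had the reverse, against 10.8%. The estimate was above 0 for 39 members with a median of 0.43, while the median over all genes was -0.29. The members' median thus lay 0.72 above that of all genes, which itself moved by 0.30 with median-of-ratios scaling. By group the medians were 0.65 for the clamp and loader and for the RPA group, 0.54 for Cdc45 and GINS, 0.47 for MCM2-7, 0.43 for nucleotide supply, 0.38 for chromatin, 0.35 for licensing, 0.33 for polymerases and 0.06 for the regulators. The length correction changed this order. The medians were then 0.89 for chromatin, 0.87 for MCM2-7, 0.82 for the RPA group and 0.80 for the clamp and loader. They were 0.67 for nucleotide supply, 0.62 for Cdc45 and GINS, 0.57 for polymerases, 0.55 for licensing and 0.46 for the regulators, against 0.01 over all genes. Rfc2 had the next lowest adjusted p, 0.0872, at 0.65 ± 0.18. Among the polymerase genes, Pola1 (-0.32 ± 0.63) and Pole (-0.03 ± 0.48) had estimates below 0, and Ccne2 had the lowest, -0.45 ± 0.90. With the length correction Pola1 was at 0.30, Pole at 0.73 and Ccne2 at -0.15, and 43 of the 44 estimates were above 0. Counts moved from 0 to 5 when single libraries were left out, 5 being reached without CON 4 (Rfc2, Rfc4, Rpa2, Tyms and Tk1), where 3.85% of all genes rose.

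Against CON, 0 of the 44 members passed in RE in either direction (limma), where 3.63% of all genes fell and 2.70% rose (427 and 318 genes, or 504 and 592 with median-of-ratios scaling and 506 and 672 with quantile normalization). At an unadjusted p below 0.05, 5 members were lower and 0 higher, against 20.2% and 8.22% of all genes. The median was -0.45 against -0.27 over all genes, and 38 estimates were below 0. In 0 members were the RE and CON libraries fully separated, against 4.76% of genes for lower and 4.46% for higher. The lowest adjusted p, 0.0889, belonged to Pole, at -1.50 ± 0.48, with RE 1 to 4 at 8.88, 6.54, 2.95 and 14.3 TPM. With the length correction Pole was at -0.74 (limma adjusted p = 0.109), and the members' median was -0.23 against -0.00 over all genes. Without CON 4, 19 members fell, among them 5 MCM2-7 genes, where 42.0% of all genes were called lower. Without CON 4, RE 1 and RE 3, 9 members fell, where 24.0% of all genes did. This comparison shares its libraries with the other comparisons, so its values are not independent of theirs.

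The position of CON 4 differed among the members with transcript length. CON 4 was below each of the other controls in 43 of the 44 members, all but Tk1, and in 68.3% of all genes. The median distance of CON 4 from the mean of CON 1 to 3 was -1.0 for the members and -0.58 for all genes, and their median transcript lengths were 2879 and 3056 bases. Across the 44 members, which share the same libraries, Spearman's rho between length and this distance was -0.55, and across 11695 genes it was -0.67. Ccne2 (-3.84), Pola1 (-2.71), Mcm4 (-2.45), Mcm2 (-2.27) and Pole (-2.01) were the furthest below. Tk1, Rfc2, Gins4, Orc6 and Tyms were the nearest to the other controls, at 0.21, -0.26, -0.27, -0.28 and -0.31. Of the 7 members that fell in KD, Rfc2 (4995 bases), Pold1 (3454 bases) and Mcm7 (2962 bases) had transcripts longer than the members' median, and Gins1, Rfc3, Rfc4 and Tk1 had transcripts of 1087 to 1440 bases. Lengths are those of the longest coding transcript in GENCODE M21, which need not be the form expressed in these cells.

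**Figure D5:**
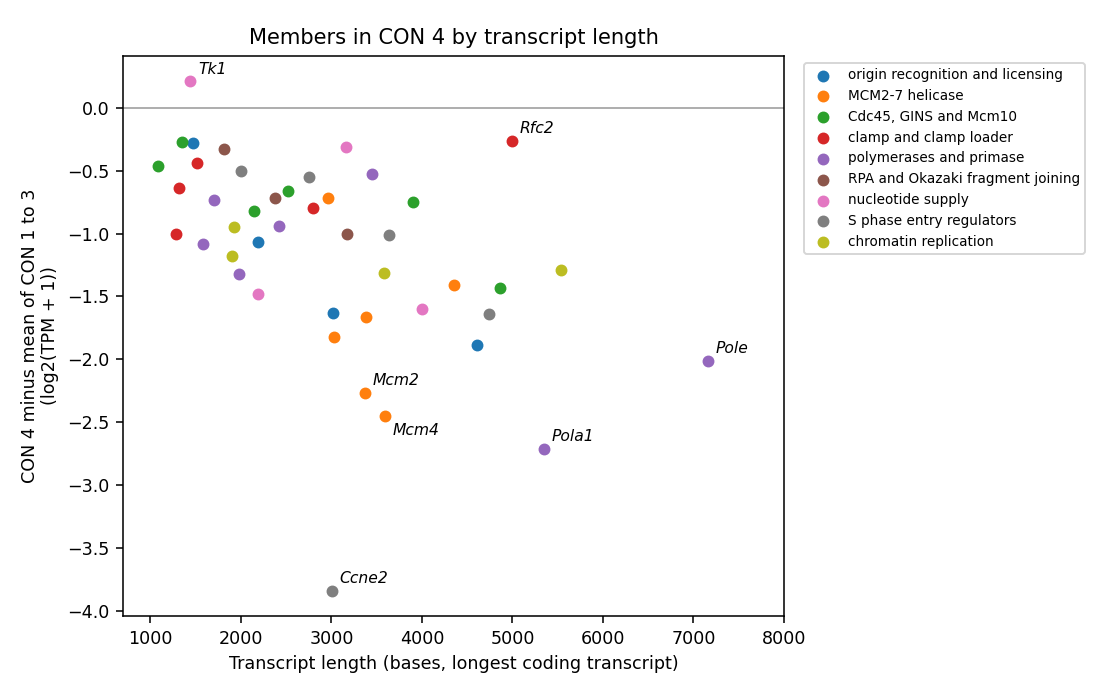
Distance of CON 4 from the mean of CON 1 to 3, in log2(TPM + 1), against transcript length in bases for the 44 members, coloured by sub-complex. Tk1 is the single member above 0, at 0.21; Pola1 and Pole, with the polymerases, lie at -2.71 and -2.01, and Rfc2 lies at -0.26 in spite of its 4995 bases.

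Beyond the 44 members, 82 further genes of the same pathways were listed in 6 groups, and all were tested. Between KD and CON 6 fell and 0 rose (limma), against 3.61% and 6.60% of all genes. At an unadjusted p below 0.05, 27 were lower and 0 higher, against 10.2% and 13.6%, and the median was -0.57 against -0.01 over all genes. When single libraries were left out, the count was 2 without CON 1, 11 without RE 3, where 4.96% of all genes were called lower, and 38 without CON 4, of which 37 were lower against 11% of all genes. It was 1 when the library left out was CON 2, CON 3, KD 1, KD 2 or KD 4. Nucleotide supply held 2 of the 6. Dut, which removes dUTP and so keeps uracil out of DNA, had 90.2, 105, 90.2 and 63.3 TPM in CON 1 to 4, 31.6, 30.2, 43.2 and 35.9 TPM in KD 1 to 4, and 81.8, 58.6, 41.6 and 73.9 TPM in RE 1 to 4. KD lay below CON without overlap, and Dut fell by 1.27 ± 0.23 (adjusted p = 0.00317). Shmt1, a folate cycle enzyme that feeds thymidylate synthesis, fell by 2.06 ± 0.56 (adjusted p = 0.0356), from 28.8 to 36.1 TPM in CON 1 to 3 and 5.71 TPM in CON 4 to 3.83 to 4.96 TPM in KD.

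Fork protection and checkpoint genes also held 2 of the 6. Rnaseh2b, a subunit of the enzyme that removes ribonucleotides from DNA, had 43.0, 41.5, 45.1 and 41.2 TPM in CON and 13.6, 16.3, 28.1 and 22.5 TPM in KD, with CON 4 level with the other controls. It fell by 1.10 ± 0.28 (limma adjusted p = 0.0275). Pclaf, a PCNA-associated factor, fell by 0.98 ± 0.26 (adjusted p = 0.0285). The last pair of calls came from separate lists. Recql4, a helicase of the firing step, fell by 1.74 ± 0.44 (adjusted p = 0.0251), with 45.9 to 54.2 TPM in CON 1 to 3, 12.3 TPM in CON 4 and 9.67 to 10.6 TPM in KD. Nasp, a histone H3 chaperone, fell by 1.04 ± 0.28 (adjusted p = 0.0346). In the licensing list Mtbp, a partner of the firing factor Ticrr, had -1.42 ± 0.44 (adjusted p = 0.0619). In the list of other DNA polymerase, clamp loader and RPA genes 0 of 10 passed (2 were lower at an unadjusted p below 0.05). The 2 with the lowest adjusted p were Pole3 (-0.51 ± 0.18) and Rpa3 (-0.39 ± 0.16). Among 16 other E2F, RB and S phase CDK genes 0 passed (3 were lower at an unadjusted p below 0.05), the lowest adjusted p belonging to Ccna2 for cyclin A2 (-0.92 ± 0.29, adjusted p = 0.0646) and Cdk4 (-0.49 ± 0.18, adjusted p = 0.109), and their median was -0.17. Ssrp1, a subunit of the FACT chaperone, had -0.69 ± 0.23 (adjusted p = 0.0867).

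Between RE and KD 0 of the 82 passed (limma), while 10 were higher and 4 lower at an unadjusted p below 0.05, against 6.36% and 21.6% of all genes. Without CON 4 the count was 11, with 7 higher and 4 lower, where 3.85% of all genes were higher. Without KD 3 it was 3, with 2 higher and 1 lower, and without RE 2 it was 2, both higher. The other shares over all genes in these fits are not given. Between RE and CON, Recql4 fell by 1.67 ± 0.44 (adjusted p = 0.0426) and Mtbp fell by 1.73 ± 0.44 (adjusted p = 0.0356). Pold4, a small subunit of polymerase delta, rose by 0.84 ± 0.21 (adjusted p = 0.0302), with 286, 249, 289 and 517 TPM in CON and 645, 588, 643 and 455 TPM in RE. CON 4 and RE 4 overlapped for Pold4, whereas its other libraries did not. The count of 3 in this comparison was 0 without CON 1, CON 2, CON 3, RE 1, RE 2 or RE 3, 1 without KD 1, KD 2 or KD 4, and 49 without CON 4, of which 47 were lower where 42.0% of all genes were.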

How the data were processed

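RNA-seq of 12 HL-1 libraries was analysed from a single table of TPM values per gene, as deposited. The submitters' processing notes name Trim Galore 0.6.6, TopHat2 2.1.1, Cufflinks 2.2.1 and the mm10 build, and the authors' step from these tools to TPM is not described further in the labels. Each column of TPM sums to 1000000, so read depth is unknown and no count test was possible. The columns WT1 to WT4 were taken as CON 1 to CON 4 from the WT genotype of the CON samples, and their numbers only name libraries. The 44 members, the lists and the tests were chosen with earlier results of these data known.

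Genes with a mean of at least 1 TPM over the 12 libraries (11774 of 23184, 6088 being at 0 in every library) were tested on log2(TPM + 1) with limma 3.58.1 in R 4.3.3, with trended empirical Bayes variance and all 3 groups in the fit. P-values are two-sided, Benjamini-Hochberg adjusted over all genes tested in each comparison, and called at 0.05. Fold changes on this scale understate the change of low genes. Values after ± are SE, or SD where stated. The fit was tested on simulated data.

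Named genes were all members and the 2 genes with the lowest adjusted p in each further pathway list. Pold4, Acta2, Tagln, Cnn1, Smtn and Mylk were chosen after their values were seen. Alternatives were another pseudocount (0.1), no filter or a mean of 5 TPM, median-of-ratios or quantile scaling, the compared groups alone, a loess correction of each library on transcript length (span 0.5), a replicate block for RE against KD, and leaving out each library. Leaving out CON 4, RE 1 and RE 3 together was chosen after seeing the data. Gene positions and lengths are from GENCODE M21 (GRCm38), and promoter windows from RefSeq; Gins4, Mcm4, Prim2, Ccne2, Rfc2, Gins1, Gins2 and Pole are without a window here.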

Additional observations from a re-analysis of the deposited data

Results flagged for a closer look

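In each group of 4 libraries, the highest and lowest TPM of every member were checked for a gap to the nearest other library that made up most of the group's range. Such a gap was found in 5 of 132 groups (3.79%), where chance gives about 1 in 20. In 4 of the 5 the library was CON 4, which was the lowest control in 43 of the 44 members. The 132 groups come from the same 12 libraries and are not independent draws. Their share of gaps is below the chance rate, so the gaps are listed as a description. For the licensing factor gene Cdt1, CON 4 had 31.4 TPM and the other CON libraries 64.7 to 70.6 TPM. For the helicase gene Mcm2 the values were 28.7 TPM against 138 to 146 TPM, and for the ligase gene Lig1 61.2 TPM against 119 to 131 TPM. E2f1 had 32.4 TPM in CON 4 against 46.3 to 48.9 TPM. The remaining library was KD 1, with 8.09 TPM of the cyclin gene Ccne2 against 5.76 to 5.97 TPM in the other KD libraries.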

How the results depend on the processing

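Between KD and CON, the 7 changed members became 19 with median-of-ratios scaling and 19 with quantile normalization, 17 with the compared groups alone, 24 with the transcript length correction, 39 without CON 4, RE 1 and RE 3, and 0 to 27 without single libraries. With another pseudocount or filter the number was 5 or 6. All of these were lower. For the 6 further pathway genes the counts were 15, 19, 10, 30, 63 and, without single libraries, 1 to 38. Of the 30, the 63 and the 38, 1 each was higher. Of the 11774 genes tested, 425 were lower without scaling, 690 with median-of-ratios scaling and 837 with quantile normalization. With the length correction 10.6% of all genes were lower, and without CON 4, RE 1 and RE 3 25.1% were. Between RE and KD, the 1 changed member became 2 with median-of-ratios scaling, 3 with quantile normalization, 0 with the compared groups alone, 3 with the length correction, 0 without CON 4, RE 1 and RE 3, and 0 to 5 without single libraries. The 0 further pathway genes became 1, 3 and 3 with the 2 scalings and the length correction and 0 to 11 without single libraries. Over all genes, 22 were higher in RE than in KD without scaling, 32 with median-of-ratios scaling and 67 with quantile normalization. Between RE and CON, the 0 changed members became 1 with median-of-ratios scaling and 1 with quantile normalization, both higher, 9 without CON 4, RE 1 and RE 3, and 0 to 19 without single libraries. The 3 further pathway genes became 0 with the compared groups alone, 5 with the length correction, 30 without the 3 libraries, and 0 to 49 without single libraries. Over all genes, 318 were higher in RE than in CON without scaling, 592 with median-of-ratios scaling and 672 with quantile normalization. No share over all genes is given for the compared groups alone, or for the length correction in the comparisons with RE. The cause of these moves was not tested. No member changed direction in a call, and no sub-complex median moved by more than its spread between replicates, under any of these settings. That spread, 0.40 to 0.82, is of single libraries, CON 4 and RE 3 among them, and is a loose bound. Within it the MCM2-7 median between KD and CON went from -1.25 to -1.71 without CON 4. The chromatin median between RE and KD went from 0.38 to 0.89 with the length correction.

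No paired analysis was possible for the comparisons with CON because its column numbers are not tied to the titles. For RE against KD, deviations of same-numbered libraries correlated at -0.55, 0.65, 0.24 and -0.25. These values gave no clear sign of pairing, and they cannot show whether same-numbered libraries shared a culture or a batch. With the replicate block, 1 member was higher, and of 7 further pathway genes called 4 were higher and 3 lower. With the replicate block and length correction together the counts were 0 and 0. No share over all genes is given for these fits.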
